A study of Sus scrofa with 23 samples.

Results

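Among coronary artery segments of diabetic swine, 4 graded severe were compared with 6 graded moderate, which is 10 of the 23 libraries of the study. Members were chosen by the titles of the libraries, which give both the grade and the diabetic status. All segments were 3 mm long and came from Yorkshire swine, a farm breed, that were hypercholesterolemic, so raised cholesterol was common to every group. The groups were severe with diabetes (4 segments) and moderate with diabetes (6), and those without diabetes, mild (4), moderate (4) and severe (5), serve only as a setting. No source used here gives the diet, the age of the animals or how diabetes was induced. No label names the animal a segment came from, so the p-values reflect the spread among segments and are too small where segments share an animal. For 1 library, severe non-diabetic replicate 5, the other labels call it moderate and diabetic, against its title. It was counted by its title. No value per library shows in which group mean the authors placed it. If they followed the title, it enters no diabetic mean, though the severe and moderate groups, with and without diabetes, share the fitted spread.

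In a coronary plaque, cholesterol carried into the vessel wall is taken up by macrophages, which become foam cells, while smooth muscle cells lose contractile proteins and lay down matrix. As the plaque advances, a lipid core, a fibrous cap, small vessels and lymphocytes can be added. Diabetes is known to speed this course in arteries, and grading by histopathology ranks segments by what the wall looks like rather than by its RNA.

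The deposited values are mean normalized counts of each group and DESeq2's test results, with no value for a single library. The number of segments that show a direction, and whether the groups overlap, can therefore not be given for any gene. Steps in the lowest means put the depth at about 11.2 M to 15.0 M reads per library in severe diabetic segments and 10.3 M to 13.3 M in moderate diabetic segments. The defining markers of the labelled tissue were present. ACTA2, smooth muscle actin, averaged 42032 normalized counts in severe diabetic and 37462 in moderate diabetic segments, and PECAM1, an endothelial adhesion molecule, averaged 2517 and 2488 normalized counts in severe and moderate diabetic segments. The macrophage complement gene C1QC averaged 4624 normalized counts in severe diabetic and 4152 in moderate diabetic segments. The segments were bulk tissue, so fewer cells of a type and less RNA per cell cannot be told apart in any value below.

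Between severe and moderate diabetic segments 1 gene was called, a long noncoding RNA. In the authors' deposited table, 1 of 30151 tested genes (0.00332%) had a DESeq2 adjusted p under 0.05, and 30132 had an adjusted p of 1. No gene of the 51 lists described below, which cover the cell types of the wall, its matrix, lipid handling, inflammation and glucose handling, was among the genes called. Without regard to adjustment, 864 genes (2.87% of all tested) had a p under 0.05. Above a minimum mean of 10 normalized counts over both groups lay 17119 genes, of which 389 (2.27%) had such a p and were higher in severe diabetic segments and 318 (1.86%) had one and were lower. These shares are the background against which counts of members with an unadjusted p under 0.05 are read. The median log2 fold change of these 17119 genes was 0.02, with 54.1% above 0.

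The precision of the comparison bounded most genes. The 95% Wald interval of the log2 fold change, from the standard errors in the authors' deposited table, lay wholly within 2-fold in either direction for 14059 of the 17119 genes (82.1%). Of the 13064 genes above a minimum mean of 50 normalized counts it did so for 11969 (91.6%), and there the median standard error was 0.20 on the log2 scale. An estimate of 2-fold or more was reached by 125 of the 17119 genes (0.730%). Changes smaller than 2-fold were often within the error, and a p that missed the threshold does not show that a gene was equal in both groups.

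**Figure D1:**
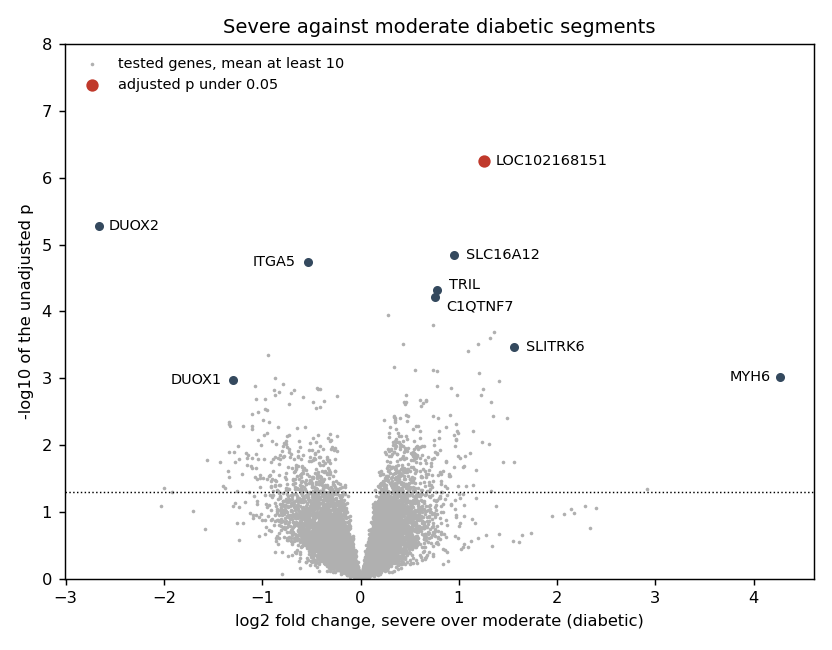
Log2 fold change of severe over moderate diabetic segments (horizontal axis) against -log10 of the unadjusted p (vertical axis) for 17119 genes above a minimum mean of 10 normalized counts; each point is a gene and the dotted line marks the unadjusted threshold of 0.05. The long noncoding RNA LOC102168151, at a log2 fold change of 1.26, is the gene called, drawn in red, and DUOX2, at -2.66, is next.

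LOC102168151 is annotated as a long noncoding RNA at chr16:35079464-35154971 of Sscrofa11.1. It averaged 50.9 normalized counts in severe diabetic segments, against 21.5 in moderate diabetic segments. Its means without diabetes were 45.6 in mild, 49.6 in moderate and 54.6 in severe segments, so the moderate diabetic group was the lowest of all 5 groups and the severe diabetic group lay near the others. The authors' deposited table gave a log2 fold change of 1.26 ± 0.25 (standard error, 95% interval 0.76 to 1.75), a p of 5.62e-07 and a DESeq2 adjusted p of 0.0170. The call was lost when the same ratios were read against a t distribution with 18 degrees of freedom (adjusted p of 1), and the gene falls under a minimum mean of 50.

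The next genes by p did not pass, and they were chosen for description after their values were seen. DUOX2, a membrane oxidase that releases hydrogen peroxide and is best known from the thyroid, averaged 8.72 normalized counts in severe diabetic and 56.3 in moderate diabetic segments. The authors' deposited table gave it a log2 fold change of -2.66 ± 0.59 with a DESeq2 adjusted p of 0.0800. That adjusted p was 0.0454 when genes with a mean under 10 were left out, and 0.0493 when all fold changes were centred on their median. With the t distribution, DUOX2 did not pass. Its paralogue DUOX1 averaged 16.1 normalized counts in severe diabetic and 39.6 in moderate diabetic segments, at a log2 fold change of -1.29 ± 0.40 in the authors' deposited table. Both oxidases had their lowest mean of the 5 groups in severe diabetic segments. DUOX2 averaged 29.4, 19.4 and 33.0 normalized counts in mild, moderate and severe segments without diabetes.

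ITGA5, the alpha chain of the fibronectin receptor, averaged 3311 normalized counts in severe diabetic and 4810 in moderate diabetic segments. In the authors' deposited table its log2 fold change was -0.54 ± 0.13 with a DESeq2 adjusted p of 0.136, and centring on the median brought that to 0.0493. ITGA5 did not pass with a minimum mean of 50 or with the t distribution, where no gene passed. Both diabetic means were above those without diabetes, which were 1995 in mild, 2414 in moderate and 2577 in severe segments. Its ligand FN1, fibronectin, averaged 106818 normalized counts in severe diabetic and 104796 in moderate diabetic segments.

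Several genes of small p had higher means in severe diabetic segments. SLC16A12, a member of the monocarboxylate transporter family, averaged 118 normalized counts in severe diabetic and 60.7 in moderate diabetic segments, with a log2 fold change of 0.95 ± 0.22 and an adjusted p of 0.136 from DESeq2 in the authors' deposited table. TRIL, a leucine-rich repeat protein that binds Toll-like receptor 4, averaged 826 and 482 normalized counts in severe and moderate diabetic segments (0.78 ± 0.19, DESeq2 adjusted p 0.284 in the authors' deposited table). C1QTNF7, a secreted protein of the C1q and tumour necrosis factor related family, averaged 321 and 190 normalized counts in severe and moderate diabetic segments (0.75 ± 0.19, DESeq2 adjusted p 0.307 in the authors' deposited table). These 3 genes differ in their levels elsewhere. SLC16A12 was lower in both diabetic groups than in every group without diabetes, where it averaged 169 to 190 normalized counts, while TRIL was highest in severe diabetic segments.

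HDAC9, a class IIa histone deacetylase listed as LOC100523163, had its lowest mean of the 5 groups in moderate diabetic segments: 883 normalized counts in severe diabetic and 529 in moderate diabetic segments, against 836 to 965 without diabetes.

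Larger estimates came with larger errors. PPAPDC1A, a lipid phosphate phosphatase, averaged 424 normalized counts in severe diabetic and 165 in moderate diabetic segments (1.36 ± 0.37 in the authors' deposited table), and IGSF10, of the immunoglobulin superfamily, averaged 338 and 135 (1.32 ± 0.36 there). SLITRK6, a transmembrane protein known from neurons, averaged 189 normalized counts in severe diabetic and 64.0 in moderate diabetic segments (1.56 ± 0.44 in the authors' deposited table). For these genes DESeq2 gave, in the authors' deposited table, an adjusted p between 0.682 and 0.735. In the other direction, SLC39A14, a zinc transporter, averaged 1843 normalized counts in severe diabetic and 3043 in moderate diabetic segments (-0.72 ± 0.24 in the authors' deposited table). MMP3, a matrix protease, was at 1.43 normalized counts in severe diabetic and 15.1 in moderate diabetic segments, where 3 counts over a group make a mean of 0.715 in severe diabetic and 0.478 in moderate diabetic segments.

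**Figure D2:**
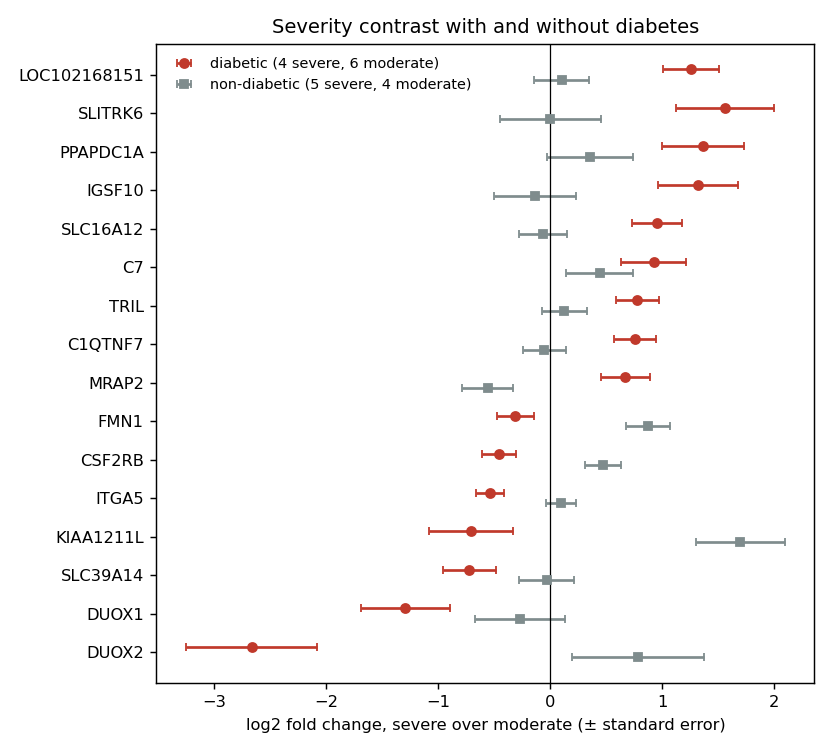
Log2 fold change of severe over moderate segments (horizontal axis, with the standard error as bars) for 16 genes chosen after their values were seen, in diabetic segments (circles, 4 severe and 6 moderate) and in non-diabetic segments (squares, 5 severe and 4 moderate). LOC102168151 lies at 1.26 in diabetic and 0.10 in non-diabetic segments, and FMN1 at -0.31 in diabetic and 0.87 in non-diabetic segments.

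A set of genes that carry no p, antibody genes among them, had higher means in severe diabetic segments than in any other group. DESeq2 is documented to leave a p blank where a count in 1 library is extreme for its group, and 35 genes had a fold change and a blank p in all 6 comparisons. Of these, 18 had their highest mean in moderate segments without diabetes, among them the heart genes NPPA and MYL7. Another 14 had their highest mean in severe diabetic segments: 12 names that begin with LOC, the joining chain gene IGJ, which links antibody subunits into polymers, and MZB1, an endoplasmic reticulum protein of plasma cells. These 14 were chosen for description after their values were seen. The reference annotation matched 6 of the 12 LOC names, and 4 of these are immunoglobulin genes.

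LOC396781, annotated with the synonym IGHG, the heavy chain of IgG, averaged 704 normalized counts in severe diabetic segments, against 43.8 in moderate diabetic segments. Its means without diabetes were 11.2 in mild, 4.82 in moderate and 6.82 in severe segments. LOC100736878, a variable segment on chromosome 3, averaged 404 normalized counts in severe diabetic and 25.6 in moderate diabetic segments. A further variable segment, LOC100736718, averaged 39.5 and 2.18 normalized counts in severe and moderate diabetic segments, and the constant region LOC102158332 on chromosome 14 averaged 22.6 and 1.34. The interval annotated for that constant region also spans LOC100152327, at 532 normalized counts in severe diabetic and 39.9 in moderate diabetic segments, and the pseudogene LOC102167964, at 21.2 and 1.63. Reads of segments and genes that overlap or resemble each other can be shared between them, so single values within this group are uncertain.

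Over the 12 LOC names, the ratio of the severe to the moderate diabetic mean ran from 8.87 to 21.9. Their summed mean was 2186 normalized counts in severe diabetic and 142 in moderate diabetic segments, and 38.1 in mild, 24.8 in moderate and 31.3 in severe segments without diabetes. IGJ averaged 120 normalized counts in severe diabetic and 47.2 in moderate diabetic segments, with 41.7 to 48.2 in the groups without diabetes. MZB1 averaged 7.66 and 1.12 normalized counts in severe and moderate diabetic segments. All 14 genes were thus higher on average in severe diabetic segments than in any other group, by the choice of the 14.

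How many of the 4 severe diabetic segments carried this RNA was not tested, because no value per library was used. The immunoglobulin genes that did receive a p had, as a sum, a smaller ratio. Annotated immunoglobulin names numbered 55, of which 48 had a p and 4 of those a mean of at least 10. The variable segment LOC102167466, also within the interval on chromosome 14, had a p under 0.05, with 71.9 normalized counts in severe diabetic and 9.54 in moderate diabetic segments (2.92 ± 1.46, p 0.0450, DESeq2 adjusted p 1 in the authors' deposited table). The names with a p summed to 207 normalized counts in severe diabetic and 112 in moderate diabetic segments.

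Plasma cell and B cell genes that had a p and a mean of at least 10 had list medians near that of all genes. Of 12 such plasma cell and immunoglobulin assembly genes, 6 were above 0 and the median log2 fold change was 0.04, beside 0.02 over all genes. MZB1 and IGJ have a blank p and are not among these 12, so the median does not cover them. XBP1, a transcription factor that plasma cells need for secretion, averaged 1244 normalized counts in severe diabetic and 1003 in moderate diabetic segments. DERL3, which exports misfolded proteins from the endoplasmic reticulum, averaged 8.62 normalized counts in severe diabetic and 15.7 in moderate diabetic segments (-0.82 ± 0.40, p 0.0393, DESeq2 adjusted p 1 in the authors' deposited table). Defining B cell markers had low means: MS4A1 and CD79A averaged 0.455 and 6.21 normalized counts in severe diabetic segments and 0 and 6.29 in moderate diabetic segments, so MS4A1 was under the mean that 3 counts over a group give. Of 8 B cell markers above the minimum mean of 10, 4 were above 0, at a median log2 fold change of -0.05. CR2, a complement receptor of B cells and follicular dendritic cells, stood apart in level, at 794 normalized counts in severe diabetic and 322 in moderate diabetic segments (1.30 ± 0.50, p 0.00962, DESeq2 adjusted p 1 in the authors' deposited table). BLK, of the same list but under that mean, had the opposite order, at 1.80 and 6.20 normalized counts in severe and moderate diabetic segments. The authors' deposited table gave BLK -1.74 ± 0.82, with a DESeq2 unadjusted p of 0.0328.

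**Figure D3:**
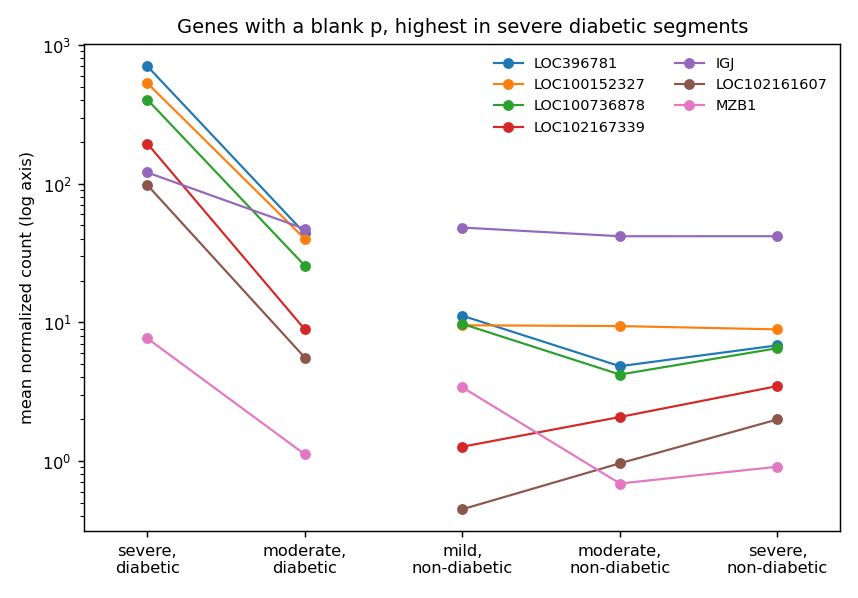
Mean normalized count (vertical log axis) of 7 of the 14 genes with a blank p that were highest in severe diabetic segments, in the 5 groups (horizontal axis); each point is the authors' group mean, without an error. LOC396781 lies at 704 in severe diabetic and 43.8 in moderate diabetic segments and at 4.82 to 11.2 without diabetes, while IGJ stays between 41.7 and 48.2 outside severe diabetic segments.

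None of the markers of macrophages and foam cells was called. The median log2 fold change was 0.16 for macrophage markers, with 11 of 17 above 0 and none with a p under 0.05, and 0.13 for foam cell and lipid handling genes, with 14 of 20 above 0 and none with such a p. APOE, the apolipoprotein that macrophages secrete, averaged 14924 normalized counts in severe diabetic and 12279 in moderate diabetic segments. SPP1, osteopontin, averaged 13594 and 14859 normalized counts in severe and moderate diabetic segments, and TREM2, a lipid-sensing receptor of foam cells, averaged 83.6 and 63.8. CD36, a scavenger receptor for oxidized lipoprotein, had the smallest p of the foam cell list, at 10981 normalized counts in severe diabetic and 7412 in moderate diabetic segments (0.57 ± 0.31, p 0.0657, DESeq2 adjusted p 1 in the authors' deposited table). The lysosomal list, which holds the hydrolases that break down engulfed lipid, had a median of 0.12 with 18 of 24 above 0.

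For T cell markers the median log2 fold change was -0.06, with 5 of 17 above 0 and none with a p under 0.05. CD3E, part of the T cell receptor complex, averaged 30.4 normalized counts in severe diabetic and 32.0 in moderate diabetic segments. NK and cytotoxic cell genes had a median of 0.08 with 7 of 10 above 0, and neutrophil genes a median of -0.09 with 3 of 13 above 0. Mast cell markers were at -0.08 with 2 of 6 above 0. Of 12 dendritic cell markers, 1 was above 0, at a median of -0.21. CCR7, the receptor that draws mature dendritic cells to lymph nodes, averaged 7.07 normalized counts in severe diabetic and 18.6 in moderate diabetic segments (-1.34 ± 0.54, p 0.0127, DESeq2 adjusted p 1 in the authors' deposited table).

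The endothelial list had its median log2 fold change at -0.10, with 6 of 15 above 0 and 3 of 15 lower with a p under 0.05. VWF_1, a copy of the gene for von Willebrand factor, averaged 497 normalized counts in severe diabetic and 743 in moderate diabetic segments (-0.58 ± 0.28, p 0.0422, DESeq2 adjusted p 1 in the authors' deposited table). ROBO4, which guards vessel integrity, averaged 88.2 and 129 normalized counts in severe and moderate diabetic segments, and FLT1, a receptor for vascular endothelial growth factor, averaged 436 and 639. PECAM1, in the same list, had a log2 fold change of 0.02 ± 0.12 in the authors' deposited table, so markers of the same cells differed among themselves. Lymphatic endothelial markers had a median of 0.36 with 5 of 8 above 0. Among them PDPN, podoplanin, averaged 93.6 normalized counts in severe diabetic and 154 in moderate diabetic segments.

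Contractile smooth muscle genes were even, with 9 of 18 above 0 and a median of -0.04 on the log2 scale. MYL9, the regulatory light chain of smooth muscle myosin, averaged 1912 normalized counts in severe diabetic and 3277 in moderate diabetic segments (-0.78 ± 0.30, p 0.00925, DESeq2 adjusted p 1 in the authors' deposited table). MYH11, smooth muscle myosin heavy chain, averaged 5203 and 7067 normalized counts in severe and moderate diabetic segments (-0.44 ± 0.23, p 0.0591, DESeq2 adjusted p 1 in the authors' deposited table). ACTA2 and TAGLN, which cap the same list by level, had estimates above 0, at 0.17 ± 0.21 and 0.20 ± 0.23 in the authors' deposited table. Genes of modulated smooth muscle had a median of 0.13, with 11 of 17 above 0. KLF4, a transcription factor that represses contractile genes, averaged 418 normalized counts in severe diabetic and 639 in moderate diabetic segments, and POSTN, periostin, averaged 43943 and 29748.

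Of 14 adventitial fibroblast markers, 10 were above 0 and 4 below, at a median of 0.29 on the log2 scale. Their estimates ran from -0.95 to 0.92, and 2 of 14 were higher with a p under 0.05. C7, a terminal complement component that adventitial fibroblasts express, averaged 14036 normalized counts in severe diabetic and 7407 in moderate diabetic segments (0.92 ± 0.29, p 0.00139, DESeq2 adjusted p 1 in the authors' deposited table). Its means without diabetes were 4758 in mild, 4940 in moderate and 6710 in severe segments, so severe diabetic segments had the highest of the 5. CFD, complement factor D, listed as LOC396877, averaged 1489 normalized counts in severe diabetic and 940 in moderate diabetic segments. Both genes also belong to the complement list, which had a median of 0.16 with 15 of 19 above 0. Adipocyte genes, a sign of fat around the vessel, had a median of 0.33 with 14 of 15 above 0 and none with a p under 0.05, and ADIPOQ, adiponectin, averaged 578 normalized counts in severe diabetic and 334 in moderate diabetic segments. Nerve and Schwann cell genes had a median of -0.12 with 5 of 12 above 0, and 3 of 14 red cell and platelet genes reached a mean of at least 10.

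Heart and striated muscle genes had the highest median of the 51 lists, at 1.41 on the log2 scale, and 13 of 15 lay above 0. The median standard error of these genes was 1.27. MYH6, the alpha heavy chain of cardiac myosin, averaged 219 normalized counts in severe diabetic and 11.3 in moderate diabetic segments (4.27 ± 1.29, p 0.000947, DESeq2 adjusted p 1 in the authors' deposited table). NPPA, the atrial natriuretic peptide, has a blank p and averaged 33.4 normalized counts in severe diabetic segments and 0 in moderate diabetic segments. Against a floor of 3 counts over the group, which covers counting error only, the ratio of these means is at least 69.9. The standard error of its log2 fold change was 2.85 in the authors' deposited table. Whether a single segment carried the NPPA or MYH6 mean was not tested. The list took 0.0458% of normalized counts in severe diabetic and 0.0323% in moderate diabetic segments, against 1.61% in mild, 0.437% in moderate and 0.400% in severe segments without diabetes. Both diabetic shares were thus below those of every group without diabetes.

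**Figure D4:**
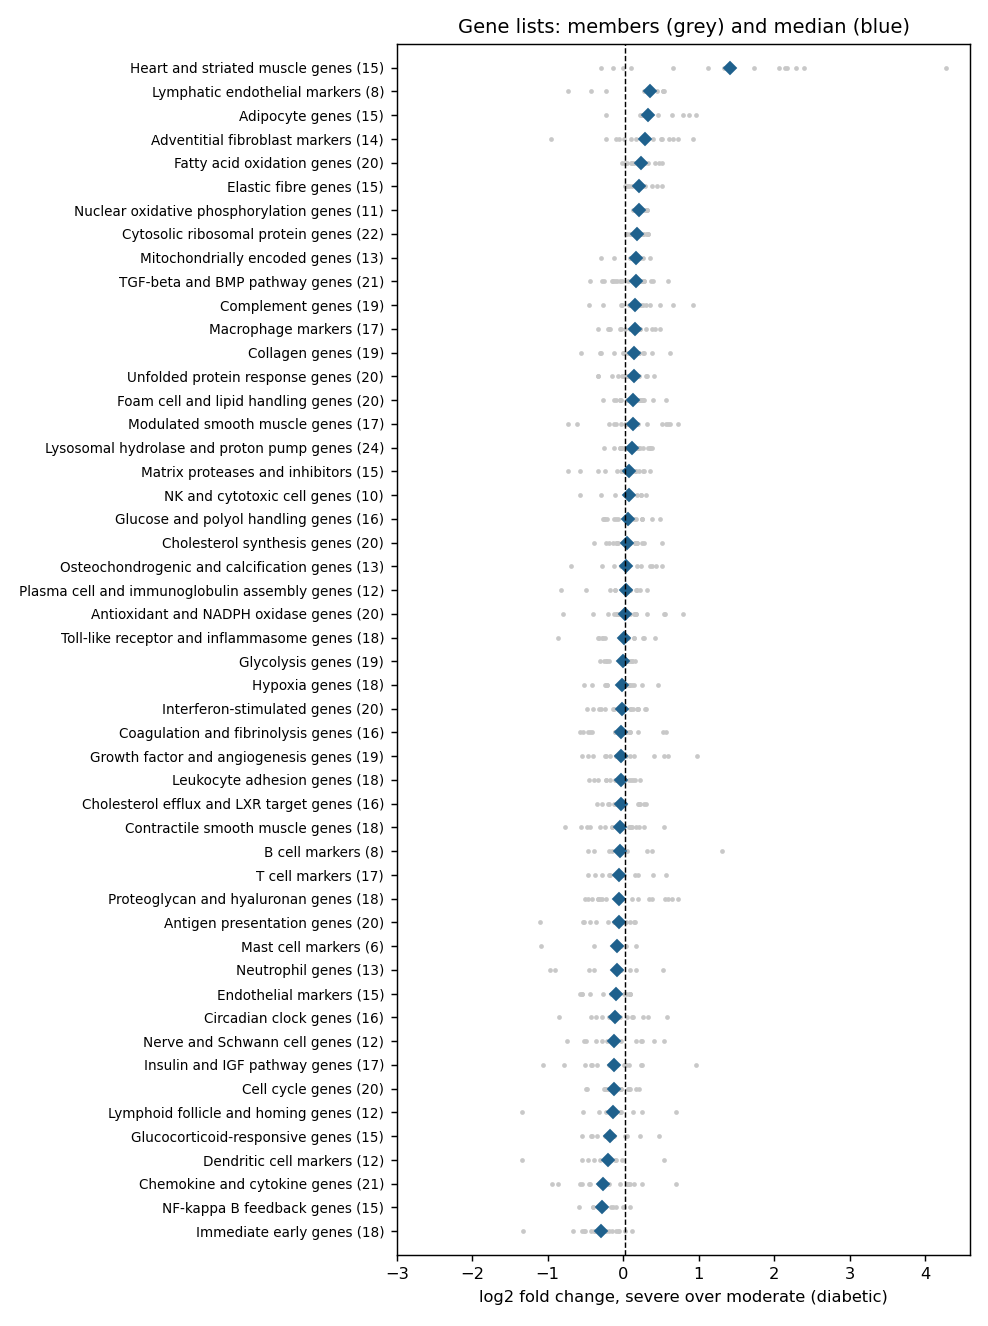
Log2 fold change of severe over moderate diabetic segments (horizontal axis) for the genes of 50 lists (rows, with the number of genes that have a p and a mean of at least 10); grey points are genes, blue diamonds are list medians, and the dashed line is the median of all such genes, 0.02. Heart and striated muscle genes lie farthest right, at a median of 1.41, and immediate early genes farthest left, at -0.29.

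The elastic fibre list was at a median log2 fold change of 0.21 and had all 15 of its genes above 0, none with a p under 0.05. ELN, elastin, averaged 6719 normalized counts in severe diabetic and 4942 in moderate diabetic segments (0.44 ± 0.34, p 0.188, DESeq2 adjusted p 1 in the authors' deposited table), and LTBP4, the lowest at 0.02, was below 0 when fold changes were centred on their median. Collagen genes had a median of 0.14 with 14 of 19 above 0. COL8A1, a short-chain collagen of vessels, averaged 11228 normalized counts in severe diabetic and 7281 in moderate diabetic segments (0.62 ± 0.25, p 0.0140, DESeq2 adjusted p 1 in the authors' deposited table).

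The chains of type I collagen differed in sign. COL1A1, a chain of type I collagen, averaged 18359 normalized counts in severe diabetic and 26959 in moderate diabetic segments. LOC100738123, a further name that the annotation used here places at the same coordinates as COL1A1, averaged 1580 and 3052 in that order. COL1A2, the partner chain, averaged 93374 and 82052 in severe and moderate diabetic segments. The authors' deposited table gave -0.55 ± 0.28 for COL1A1 (p 0.0493) and 0.19 ± 0.32 for COL1A2 (p 0.558), each with a DESeq2 adjusted p of 1. Reads of a gene listed under both names can be split between them, so the COL1A1 and LOC100738123 values are each uncertain. Proteoglycan and hyaluronan genes had a median of -0.06 with 8 of 18 above 0, and SHAS2, a hyaluronan synthase, averaged 180 normalized counts in severe diabetic and 123 in moderate diabetic segments (0.55 ± 0.16, p 0.000750, DESeq2 adjusted p 1 in the authors' deposited table). Matrix proteases and inhibitors had a median of 0.08 with 9 of 15 above 0, with MMP9, a gelatinase, at 7126 and 6348 normalized counts in severe and moderate diabetic segments. TIMP1, an inhibitor of matrix proteases, averaged 303 and 501 normalized counts in severe and moderate diabetic segments. Osteochondrogenic and calcification genes had a median of 0.04 with 8 of 13 above 0.

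Among lists with at least 5 genes, immediate early, NF-kappa B feedback, and chemokine and cytokine genes had the lowest medians. Of 18 immediate early genes, 2 were above 0, and the median log2 fold change was -0.29. FOS, a transcription factor switched on within minutes of a stimulus, averaged 574 normalized counts in severe diabetic and 1440 in moderate diabetic segments (-1.33 ± 0.47, p 0.00514, DESeq2 adjusted p 1 in the authors' deposited table). In the NF-kappa B feedback list 2 of 15 were above 0, also at a median of -0.29. RELA, an NF-kappa B subunit, averaged 277 normalized counts in severe diabetic and 349 in moderate diabetic segments (-0.33 ± 0.14, p 0.0165, DESeq2 adjusted p 1 in the authors' deposited table).

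Chemokine and cytokine genes followed at a median of -0.27 on the log2 scale, with 7 of 21 above 0 and none with a p under 0.05. CCL4, a chemokine for monocytes and T cells, averaged 10.4 normalized counts in severe diabetic and 20.4 in moderate diabetic segments, and CXCL12, which retains leukocytes in tissue, averaged 194 and 119. Glucocorticoid-responsive genes had a median of -0.17 with 4 of 15 above 0. Medians near 0 were those of interferon-stimulated genes at -0.02, leukocyte adhesion genes at -0.03, and Toll-like receptor and inflammasome genes at 0.01. Lymphoid follicle and homing genes were at -0.13, with 3 of 12 above 0. Antigen presentation genes were at -0.06, with 5 of 20 above 0, and PSMB9, a subunit of the immunoproteasome, averaged 38.9 normalized counts in severe diabetic and 84.1 in moderate diabetic segments (-1.11 ± 0.40, p 0.00512, DESeq2 adjusted p 1 in the authors' deposited table).

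All 22 cytosolic ribosomal protein genes were above 0, at a median log2 fold change of 0.18, as were all 11 nuclear oxidative phosphorylation genes, at 0.20. Fatty acid oxidation genes had a median of 0.24 with 19 of 20 above 0, and mitochondrially encoded genes 0.17 with 11 of 13 above 0. None of these genes had a p under 0.05. ACAA2, a thiolase of mitochondrial fatty acid oxidation, averaged 472 normalized counts in severe diabetic and 331 in moderate diabetic segments (0.51 ± 0.34, p 0.137, DESeq2 adjusted p 1 in the authors' deposited table). Heart muscle is rich in the same mitochondrial genes, and its list took 0.0458% of counts in severe diabetic and 0.0323% in moderate diabetic segments. Its part in these values was not tested.

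For glycolysis genes the median log2 fold change was 0.00, and the 95% interval of all 19 lay within 2-fold. Glucose and polyol handling genes had a median of 0.06 with 9 of 16 above 0, and TXNIP, a thioredoxin inhibitor that glucose induces, averaged 5704 normalized counts in severe diabetic and 4065 in moderate diabetic segments. In the insulin and IGF list, at a median of -0.12, 3 of 17 genes were lower with a p under 0.05. IGFBP4, which binds insulin-like growth factors, averaged 525 normalized counts in severe diabetic and 901 in moderate diabetic segments (-0.78 ± 0.32, p 0.0146, DESeq2 adjusted p 1 in the authors' deposited table). IGF2 averaged 11.3 normalized counts in severe diabetic and 23.9 in moderate diabetic segments, and FOXO3_2, a copy of a transcription factor held back by insulin, averaged 295 and 396.

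Antioxidant and NADPH oxidase genes had their median at 0.02 on the log2 scale, and 3 of 20 were higher and 1 of 20 lower with a p under 0.05. The oxidases DUOX1 and DUOX2, described above with lower means in severe diabetic segments, are not in this list. GPX3, a secreted glutathione peroxidase, averaged 3151 normalized counts in severe diabetic and 1812 in moderate diabetic segments (0.80 ± 0.29, p 0.00607, DESeq2 adjusted p 1 in the authors' deposited table). CAT, catalase, averaged 3684 and 2502 normalized counts in severe and moderate diabetic segments, and NQO1, a quinone reductase, averaged 288 and 197. HMOX1, which breaks down heme, had the opposite order, at 138 normalized counts in severe diabetic and 240 in moderate diabetic segments.

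Growth factor and angiogenesis genes had a median of -0.03, with 3 of 19 higher and 1 of 19 lower with a p under 0.05. FIGF, a lymphatic and vascular growth factor, averaged 72.9 normalized counts in severe diabetic and 36.8 in moderate diabetic segments. Coagulation and fibrinolysis genes were at -0.02, and in them PROS1, the anticoagulant protein S, averaged 1853 normalized counts in severe diabetic and 1255 in moderate diabetic segments, while THBD, thrombomodulin, averaged 657 and 905. The remaining medians were 0.16 for TGF-beta and BMP pathway genes, 0.14 for the unfolded protein response, 0.06 for cholesterol synthesis, -0.02 for hypoxia, -0.03 for cholesterol efflux and LXR targets, -0.11 for circadian clock genes and -0.12 for cell cycle genes.

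Genes that differed between severe and mild segments without diabetes were then read in the diabetic comparison, which shares no library with them. Severe non-diabetic replicate 5, the library with conflicting labels, helped to define these genes if the authors grouped it by its title. Severe against mild segments without diabetes had 1460 genes higher (7.19% of 20294) and 975 lower (4.80%) in the authors' deposited table, by DESeq2 adjusted p under 0.05. Of the 1460, 1411 had a p and a mean of at least 10 in the diabetic comparison, and their median log2 fold change of severe over moderate diabetic segments was -0.01, with 48.6% above 0. Of these 1411, 18 (1.28%) were higher and 41 (2.91%) lower with an unadjusted p under 0.05, beside 2.27% and 1.86% of all genes.

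The genes lower in severe than in mild segments without diabetes had the opposite displacement. Of the 903 measured, 66.1% were above 0, at a median of 0.10, beside 54.1% and 0.02 for all genes. An unadjusted p under 0.05 was found for 30 (3.32%) higher and 11 (1.22%) lower. Heart and striated muscle genes took 1.61% of normalized counts in mild and 0.400% in severe segments without diabetes. In the diabetic comparison 13 of 15 of these heart genes were above 0. The part of heart muscle in the displacement was not tested. None of the 1411 and none of the 903 were called, and intervals lay within 2-fold for 88.8% and 77.0% of them. GPNMB, a lysosomal membrane glycoprotein of foam cells, is one of the genes with a higher mean in severe than mild segments without diabetes. It averaged 138, 1465 and 2635 normalized counts in mild, moderate and severe segments without diabetes, and 4727 in severe diabetic and 4296 in moderate diabetic segments.

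**Figure D5:**
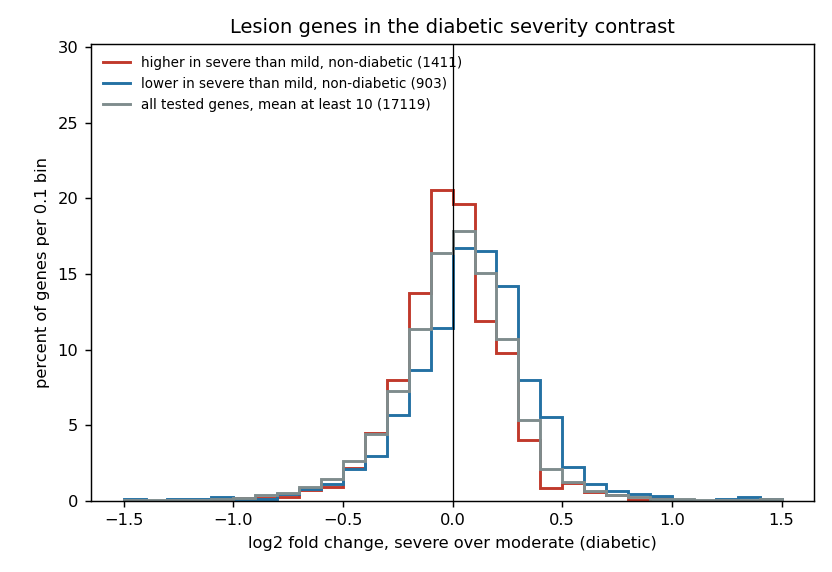
Distribution of the log2 fold change of severe over moderate diabetic segments (horizontal axis, bins of 0.1) as percent of genes (vertical axis) for 1411 genes higher and 903 genes lower in severe than mild segments without diabetes, and for all 17119 genes. The outermost bins hold values beyond them; genes lower in severe segments without diabetes centre at 0.10 and those higher at -0.01.

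The severe and moderate grades without diabetes also differed in few genes. In the authors' deposited table, 4 of 19716 genes (0.0203%) differed between severe and moderate segments without diabetes at a DESeq2 adjusted p under 0.05: LOC100512344, LOC100517243, LOC100739719 and FMN1. Across 12921 genes above a minimum mean of 50, the log2 fold changes of severe over moderate segments with and without diabetes had a Pearson r of -0.00762 and a Spearman rho of -0.06, and 45.4% had the same sign. These correlations are across genes, which are not independent replicates, and the comparisons share no library but share the normalization and the fitted spread.

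The difference of both severity comparisons, with diabetes minus without, passed for 2 of 17401 genes (0.0115%) by a Wald test on the values of the authors' deposited tables with Benjamini-Hochberg adjustment. FMN1, a formin that nucleates actin filaments, averaged 98.6 normalized counts in severe diabetic and 122 in moderate diabetic segments, and 85.5 in severe and 47.2 in moderate segments without diabetes. Its difference was -1.19 on the log2 scale with an adjusted p of 0.0281. In mild segments it averaged 9.85 normalized counts, so both diabetic groups were above every group without diabetes. LOC100512344, which the annotation used here does not match, averaged 150 normalized counts in severe diabetic and 98.4 in moderate diabetic segments, and 1.38 in severe and 60.8 in moderate segments without diabetes. Its difference was 6.06 on the log2 scale with an adjusted p of 0.0237, and the low mean was that of the group without diabetes. LOC102168151 did not pass, at a difference of 1.16 and an adjusted p of 0.585.

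The next genes by the test of the difference had adjusted p between 0.0569 and 0.0861. KIAA1211L averaged 172 normalized counts in severe diabetic and 282 in moderate diabetic segments, and 177 in severe and 54.6 in moderate segments without diabetes, a difference of -2.40 by the Wald test with an adjusted p of 0.0569. CSF2RB, the receptor chain common to interleukin-3, interleukin-5 and GM-CSF, averaged 479 and 657 normalized counts in severe and moderate diabetic segments, and 532 and 385 in severe and moderate segments without diabetes. PIK3R5, a regulatory subunit of PI3 kinase gamma, averaged 422 and 526 normalized counts in severe and moderate diabetic segments, and 290 and 206 in severe and moderate segments without diabetes. In these 3 genes the moderate group was the higher of the diabetic pair and the severe group the higher of the pair without diabetes. HHIP, an inhibitor of hedgehog signalling, had the reverse order, at 10.02 and 2.95 normalized counts in severe and moderate diabetic segments and 14.5 and 26.8 in severe and moderate segments without diabetes. Each of CSF2RB, PIK3R5, HHIP and DUOX2 had an adjusted p of 0.0861 for the difference, and severe non-diabetic replicate 5, the library with conflicting labels, enters all of these values.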

How the data were processed

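Poly-A selected RNA of 23 coronary segments was sequenced, per the labels' protocols. The authors used the build Sscrofa11.1 and DESeq2, per the submitters' processing notes; aligner, counter, annotation and versions are not given in the sources consulted. What the authors deposited first are group means of normalized counts, a signal that is never negative, per the file headers. They deposited a log2 fold change with its standard error, a test score in some tables, and a p-value with its adjusted p-value. The score has the opposite sign to the fold change, so directions follow the group means. A Wald p recomputed from fold change and standard error was within 4.39e-15 of the deposited one. The standard errors show that the severe and moderate groups, with and without diabetes, were fitted together. The mild group did not enter that check.

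Each table has 35252 lines, of which 24 name a date and no gene and were left out. Of 35228 names, 5042 were at 0 in every group, 35 had a blank p and 30151 were tested. No values per library were used, so the planned count model was replaced by the deposited tests, as the design provides. The difference of contrasts was a two-sided Wald test with summed squared standard errors and Benjamini-Hochberg adjustment over genes above a minimum mean of 10. Its code was run on independent normal estimates simulated from the deposited standard errors. That run cannot show how the test behaves with few segments or shared animals. The members, the 51 gene lists (894 genes, 70 unmatched) and the named genes were chosen with earlier results of these data known. The naming rule takes the 2 members of smallest p of a list without calls and the 10 genes of smallest adjusted p of the difference, and not every such gene is reported here. List medians cover genes that have a p and reach a mean of 10. Lists were matched by name, gene identifier, synonym or numbered copy, and names, biotypes and coordinates come from the RefSeq table of Sscrofa11.1. Depth was estimated from the fixed steps that 1 read in 1 library leaves in group means. Floors cover counting error only. Python 3.11.15, pandas 2.3.3, numpy 2.4.6 and scipy 1.17.1 were used.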

Additional observations from a re-analysis of the deposited data

Results flagged for a closer look

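The effect of severity differed between diabetic and non-diabetic segments by a test of the difference itself for 2 genes, which flagged them. For FMN1 the difference of log2 fold changes was -1.19 (95% interval -1.69 to -0.69), with estimates of -0.31 in diabetic and 0.87 in non-diabetic segments in the authors' deposited tables. For LOC100512344 it was 6.06 (95% interval 3.60 to 8.53), with estimates of 0.60 in diabetic and -5.46 in non-diabetic segments. Both rest on severe non-diabetic replicate 5 among others, whose labels conflict, and the part of that library was not tested. Samples far from their group could not be looked for, since no values per library were used.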

How the results depend on the processing

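The severe against moderate comparison in diabetic segments called 1 gene, and 2 when genes with a mean under 10 were left out, 0 with a minimum mean of 50, 3 after centring fold changes on their median and 0 when a t distribution with 18 degrees of freedom replaced the normal. The corresponding comparison without diabetes called 4 genes, 7 after centring and 0 with the t distribution, and the difference of both called 2, 4 after centring and 0 with the t distribution. At the counts of 0, unadjusted p under 0.05 was found for 540 genes with a minimum mean of 50 and, with the t distribution, for 609, 561 and 497 genes in the 3 comparisons. The 1 and 4 calls above are DESeq2's, and the 2 are those of the Wald test of the difference. DUOX2 passed with a minimum mean of 10 (adjusted p 0.0454) and after centring (0.0493), ITGA5 after centring (0.0493), and LOC102168151 was lost with the t distribution. For the difference, KIAA1211L passed with a minimum mean of 50 (0.0433) and after centring (0.0373), CSF2RB after centring (0.0437), and FMN1 and LOC100512344 were lost with the t distribution. The cause was not tested. Of the 175 recomputed results of single genes none reversed; LTBP4, which was not among them, was below 0 after centring, and 8 of 51 list medians changed sign under some setting; the largest move of a list median was 0.28. Centring shifted values by 0.04 with diabetes and by -0.01 without. Leaving out each replicate was not run, because no values per library were used. No paired analysis was possible because the tables hold group means only. The median standard error was 0.41 over all tested genes and 0.23 over those with a mean of at least 10, on the log2 scale.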
